A study of Mus musculus with 4 samples.

Results

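The enzymes described here make and prepare the covalent crosslinks of collagen: the lysyl oxidases Lox, Loxl1, Loxl2, Loxl3 and Loxl4 and the collagen lysyl hydroxylases Plod1, Plod2 and Plod3. They were taken by gene symbol, and all 8 were present among the 21881 gene symbols measured. The cells were immortalised monoclonal fibroblast-like lines of mouse bone marrow (mesenchymal stem cells) of strain C57BL/6. All of them carried floxed but intact Dicer alleles (Dicer f/f). Clone 6 and clone 12 were each infected with a puromycin-resistant pMMP-puro retrovirus that was empty (vector, 2 libraries) or encoded Flag-HA-NR6A1 (2 libraries), a nuclear receptor without a known ligand that is best known from germ cells and the early embryo. Each line is 1 clone, and the labels name no age of the source animals. Levels are FPKM, fragments scaled to transcript length and library depth, so they can be compared between genes.

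Lysyl hydroxylases act inside the endoplasmic reticulum, where they add a hydroxyl group to chosen lysines of the growing procollagen chain. After secretion, lysyl oxidases, which need copper, turn lysines and hydroxylysines of the assembled fibre into aldehydes that join neighbouring molecules. Hydroxylation of the telopeptides, the ends of the chain, decides which type of crosslink forms, and stiffer tissues such as bone carry more of the hydroxylysine-derived type.

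The lysyl oxidases share a catalytic domain with a histidine-rich copper-binding stretch, shown here because it is what makes these genes 1 family. A search of GENCODE transcripts, translated in 3 frames, found it 1 time in each of the 5 genes. The stretch is printed as 30 bases of coding sequence, 5′ to 3′ on the coding strand, with histidine codons in capitals.
Loxl1: CATagctgtCACcaaCATtacCACagcatg
Loxl2: CACgactgcCACaggCACtacCACagcatg
Loxl3: CATgagtgtCATgggCATtacCACagtatg
Loxl4: CACcagtgcCACaggCACtacCACagcatc

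The search was for an amino acid pattern that itself requires the 4 histidines, a cysteine and a tyrosine, so the 4 histidine codons are not a result. Each of the 4 printed stretches crossed an exon junction, so the genomic interval includes an intron. In GRCm38 the interval was chr9:58293714-58294372 for Loxl1 (minus strand, exons 3 and 4 of 7) and chr14:69682325-69689043 for Loxl2 (plus strand, exons 10 and 11 of 14). It was chr6:83050004-83050131 for Loxl3 (plus strand, exons 10 and 11 of 14) and chr19:42598801-42599890 for Loxl4 (minus strand, exons 11 and 12 of 15). Loxl2 and Loxl4 were identical at 27 of the 30 bases, and Loxl1 and Loxl4, the least alike of these 4 genes, at 20. The required amino acids set part of this identity in advance. Over the longest coding transcripts of all 8 genes, the longest exact run shared by any of the 28 pairs was 32 bases, between Lox and Loxl1. Reads longer than that run could not match both transcripts exactly.

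The 4 libraries had an estimated 20.45 to 24.2 M mapped reads (M, 1e6), read from the steps between low FPKM values, and 15718 to 15979 genes were above 0. In the order clone 6, clone 12, Nr6a1 had 4.18 and 2.80 FPKM in vector libraries but 783 and 598 in NR6A1 libraries, in the direction of their labels. Of 13 markers of mesenchymal stem cells, 12 had a mean of at least 1 FPKM, and Thy1 was at 0.030 FPKM or less. Defining markers of blood cells (9 of 10 in the file) summed to 0.400 to 1.38 FPKM per library and those of endothelial cells (7) to 0.0447 to 0.189. Single markers of other types were present: the lipid carrier Fabp4 at 73.3 to 285 FPKM, with Adipoq, which defines fat cells, at 0.318 or less. The keratin gene Krt14 was at 12.9 FPKM in the vector library of clone 6 and at 1.50 or less in the others.

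Lox was by far the most abundant of these enzymes and Loxl2 and Loxl3 the least. Lox, the founding lysyl oxidase of collagen and elastin, averaged 317 ± 51.2 FPKM (SD over 4 libraries) and ranked 288 among the 11346 genes whose mean reached 1 FPKM. Plod3, a lysyl hydroxylase that also transfers sugars to hydroxylysine, came next at 85.8 ± 22.3. Plod1, which hydroxylates mainly the helical part of the chain, averaged 52.4 ± 3.07, Loxl1, the oxidase tied to elastic fibres, 52.2 ± 23.7, and Plod2, the telopeptide lysyl hydroxylase, 49.5 ± 1.53 FPKM. The ranges of Plod1 and Loxl1 overlapped, as did those of Loxl1 and Plod2, so their order is not set by these data. Loxl4 averaged 32.6 ± 6.91, Loxl3 16.9 ± 4.54 and Loxl2 16.4 ± 7.63 FPKM; these 3 oxidases carry scavenger receptor domains ahead of the catalytic domain. The ranges of Loxl3 and Loxl2 overlapped, and each was the higher in 2 of the 4 libraries: Loxl3 in clone 6 and Loxl2 in clone 12. Plod2 stands for the sum of its splice forms, which gene-level values do not separate.

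**Figure D1:**
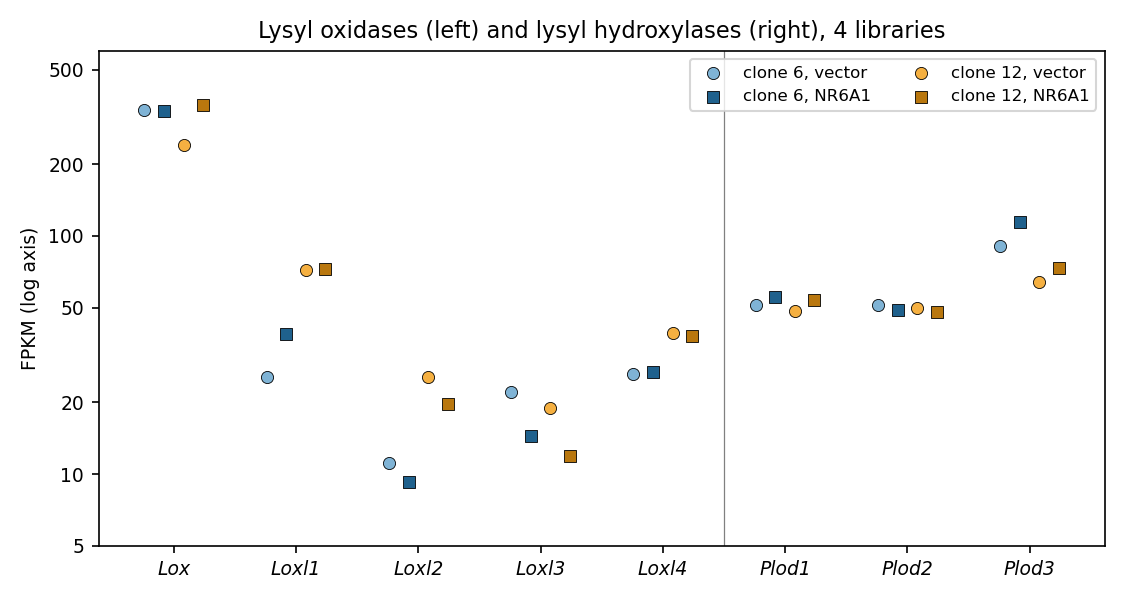
FPKM (log axis) of the 8 genes, with 1 point per library; colour marks the clone (blue, clone 6; orange, clone 12) and shape the virus (circle, vector; square, NR6A1). Loxl1, Loxl2 and Loxl4 separate by colour, with both clone 12 libraries above both clone 6 libraries, and Plod3 separates the other way.

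The first comparison asked whether raising NR6A1 in these cells shifts the crosslinking enzymes. None of the 8 passed limma's test with Benjamini-Hochberg adjustment over all genes at 0.05, against 0.0353% of all genes tested (4 of 11346), a share at which no call among 8 genes would be the usual outcome. The largest difference was in Loxl3, which was lower with NR6A1 in both clones. At an unadjusted p under 0.05 stood 3 of the 8 (Loxl3 and Loxl2 lower, Plod3 higher), against 8.48% of all genes. Differences are on the log2(FPKM + 1) scale, and their median over the 8 genes was 0.06, beside 0.0010 over all genes tested. In such bulk RNA, fewer cells that express a gene and less RNA per cell cannot be told apart. The 2 lines are the only replicates, so the p-values rest on how closely the lines repeat each other and carry no information on repeat cultures.

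Loxl3, an oxidase known for roles in palate and skeletal development, had 22.1 FPKM in clone 6 and 18.9 in clone 12 with vector, and 14.5 and 11.9 FPKM in the same order with NR6A1. Both NR6A1 values lay below both vector values. The difference was -0.60 ± 0.08 log2 units (SE), with -0.58 in clone 6 and -0.63 in clone 12 (limma adjusted p = 0.229). Over the settings that used all 4 libraries the adjusted p of Loxl3 ran from 0.0845 to 1.

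Loxl2, a secreted oxidase that is also studied for its action on histones, was at 11.2 and 25.6 FPKM with vector and at 9.25 and 19.7 with NR6A1. It was lower with NR6A1 within each clone, by less than the gap between the clones, so the virus groups overlapped. The difference was -0.31 ± 0.08 (-0.25 in clone 6 and -0.37 in clone 12, limma adjusted p = 0.500).

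Lox was at 339 and 241 FPKM with vector and at 335 and 354 with NR6A1. The vector library of clone 12 was the low one, and the other 3 lay within 334.8 to 353.6 FPKM. The clones accordingly gave different changes, -0.018 in clone 6 and 0.55 in clone 12, and the estimate of 0.27 ± 0.16 did not pass (limma adjusted p = 0.663). Loxl1 showed the other arrangement: with 25.5 and 71.9 FPKM in vector and 38.8 and 72.4 in NR6A1 libraries, it was higher in clone 6 (0.59) and nearly level in clone 12 (0.011), with an estimate of 0.30 ± 0.16 (limma adjusted p = 0.647). With 1 library per clone and virus, a difference between the clones' changes has no test. Loxl4 was at 26.4 and 39.1 against 26.9 and 38.1 FPKM, a difference of -0.0061 ± 0.07 (limma adjusted p = 0.986).

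Among the hydroxylases, Plod3 was at 91.1 and 64.3 FPKM with vector and at 115 and 73.0 with NR6A1. It was higher with NR6A1 within each clone (0.33 and 0.18), while the virus groups overlapped because the clones differed (0.25 ± 0.08, limma adjusted p = 0.553). Plod1 was at 51.4 and 48.5 against 55.5 and 54.0 FPKM. Both NR6A1 values of Plod1 lay above both vector values, by a small margin (0.13 ± 0.07, limma adjusted p = 0.647). Plod2 was at 51.5 and 49.7 against 48.7 and 48.0 FPKM, with both NR6A1 values just below both vector values (-0.065 ± 0.07, limma adjusted p = 0.785). Groups that did not overlap were thus seen in 3 of the 8 genes (Loxl3, Plod1, Plod2), against 20.4% of all genes tested.

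**Figure D2:**
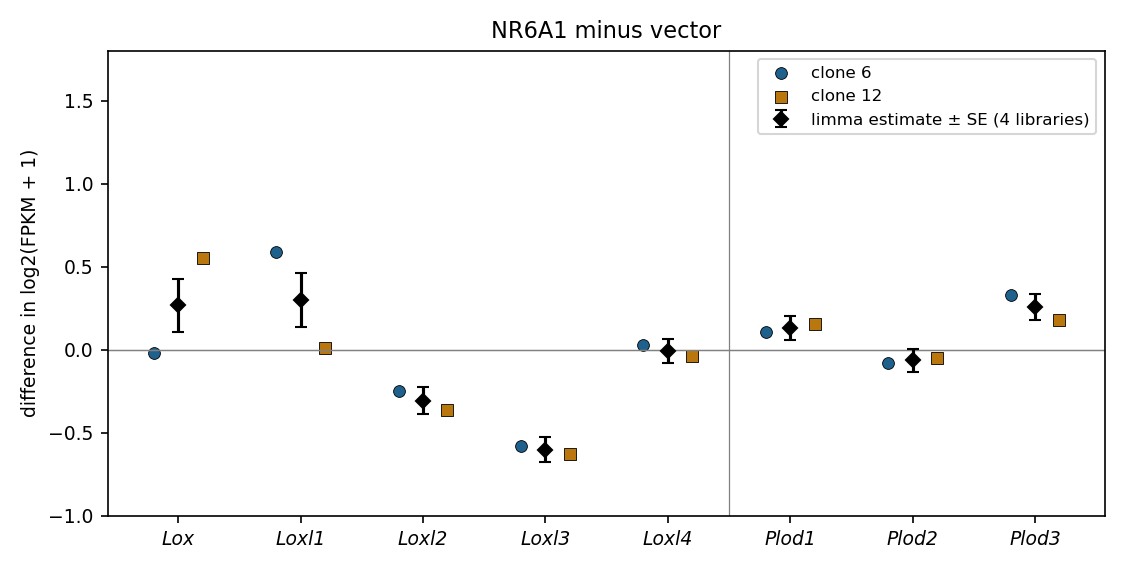
Difference in log2(FPKM + 1), NR6A1 minus vector, for each gene; circles are clone 6, squares clone 12 and diamonds the limma estimate with its SE over 4 libraries. Loxl3 has the lowest estimate (-0.60) with both clones close together, while Lox (-0.018 and 0.55) and Loxl1 (0.59 and 0.011) differ between the clones.

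The second comparison asked how the 2 lines differ. Loxl1, Loxl2 and Loxl4 were higher in clone 12, Plod3 was higher in clone 6, and Lox, Loxl3, Plod1 and Plod2 did not pass. In all, 4 of the 8 passed limma's test of clone with virus as a block, against 21.9% of all genes tested (2490 of 11346). In the upward direction 3 of the 8 passed, against 11.5% of all genes, and in the downward direction 1, against 10.5%. The values of the clones did not overlap in these same 4 genes, against 68.0% of all genes tested. The lines differ at many genes, so such calls are common, and the 2 libraries of a clone differ in virus. Fabp4 also differed between the lines, at 285 and 129 FPKM in clone 6 and 79.4 and 73.3 in clone 12, and its part in these results was not tested.

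Loxl1 was at 25.5 and 38.8 FPKM in clone 6 (vector, then NR6A1) and at 71.9 and 72.4 in clone 12. Its mean was 32.2 ± 9.44 against 72.2 ± 0.401 FPKM (SD, n = 2), and both clone 12 values lay above both clone 6 values. The log2 difference was 1.17 ± 0.16, with 1.46 between the vector and 0.88 between the NR6A1 libraries (limma adjusted p = 0.0262).

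Loxl2 was at 11.2 and 9.25 FPKM in clone 6 and at 25.6 and 19.7 in clone 12, again without overlap. Clone 12 was 2.29-fold higher with vector and 2.13-fold higher with NR6A1, and the log2 difference was 1.07 ± 0.08 (limma adjusted p = 0.0144). Loxl4 was at 26.4 and 26.9 FPKM in clone 6 and at 39.1 and 38.1 in clone 12. Libraries of the same clone were close to each other and the clones were apart, with a log2 difference of 0.52 ± 0.07 (limma adjusted p = 0.0269).

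Plod3 went the other way, at 91.1 and 115 FPKM in clone 6 and 64.3 and 73.0 in clone 12. Both clone 6 values lay above both clone 12 values, and the log2 difference was -0.57 ± 0.08 (limma adjusted p = 0.0260). The other hydroxylases were close to level between the clones: Plod1 differed by -0.060 ± 0.07 and Plod2 by -0.035 ± 0.07 (limma adjusted p = 0.559 and 0.734). The highest Plod2 value was 1.07 times the lowest over the 4 libraries, compared with 2.84 times for Loxl1. Loxl3 differed by -0.24 ± 0.08 (limma adjusted p = 0.102), and Lox by -0.20 ± 0.16 (limma adjusted p = 0.391), since it was lower in clone 12 with vector and slightly higher with NR6A1.

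The 4 calls ended when no filter on low values was used (limma adjusted p of 0.0798 to 0.0908), and Plod3 lost its call when virus was left out of the model (limma adjusted p = 0.0625). When a single library was dropped, which leaves no room for a block, the single call kept was that of Loxl1 without the NR6A1 library of clone 6 (limma adjusted p = 0.0209), while the log2 differences over the 4 such fits stayed at 0.88 to 1.47 for Loxl1, 0.89 to 1.25 for Loxl2, 0.50 to 0.54 for Loxl4 and -0.73 to -0.41 for Plod3.

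**Figure D3:**
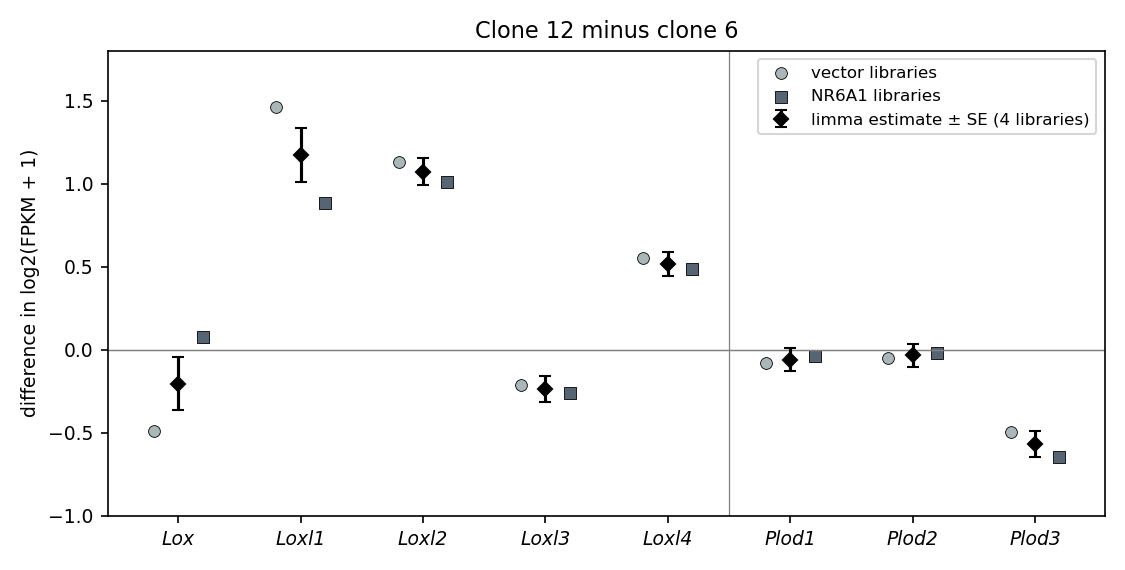
Difference in log2(FPKM + 1), clone 12 minus clone 6, for each gene; circles compare the vector libraries, squares the NR6A1 libraries, and diamonds are the limma estimate with its SE. Loxl1 (1.17), Loxl2 (1.07) and Loxl4 (0.52) lie above 0 and Plod3 (-0.57) below it, with Plod1 and Plod2 near 0.

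Neighbouring genes overlap some of these genes on the opposite strand in GENCODE, and the strand setting of the deposited values was not stated. Exons of Plod3 share 529 bases with exons of Znhit1, a chromatin remodelling subunit gene. Znhit1 was at 81.3 and 87.8 FPKM in clone 6 and 59.0 and 62.8 in clone 12, a log2 difference of -0.47 ± 0.07 (limma adjusted p = 0.0286), and so differed between the clones in the direction of Plod3. Exons of Loxl3 share 535 bases with exons of Htra2, a mitochondrial protease gene, with 73.0 and 71.4 FPKM in vector and 65.2 and 63.4 in NR6A1 libraries (log2 difference -0.17 ± 0.07, limma adjusted p = 0.637). Without strand, reads from the shared bases cannot be assigned to either gene, and their part in the values of Plod3 and Loxl3 was not tested. Both neighbours were named for their overlap. Exons of Loxl2 share 301 bases with Gm27177, those of Plod2 346 with Gm38391 and those of Lox 30 with AC161119.1, also on the opposite strand. None of these overlapping genes was among the symbols measured, and their part was not tested. On the same strand, exons of Plod3 share 9 bases with the microRNA gene Mir702, and those of Loxl2 share 7 with Mir6950, which was not measured. Mir702 was at 19.6 FPKM in the NR6A1 library of clone 6 and at 0 in the other libraries, and its part was not tested.

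The make-up of the lysyl oxidases differed between the lines although their sum did so less. The 5 genes summed to 424.1 and 424.2 FPKM in clone 6 (vector, then NR6A1) and to 397 and 496 in clone 12. Lox held 79.9% and 78.9% of that sum in clone 6 and 60.8% and 71.3% in clone 12. The other 4 oxidases together summed to 85.2 and 89.4 FPKM in clone 6 and 156 and 142 in clone 12, and Loxl1 alone held 6.01% and 9.15% of the family in clone 6 and 18.1% and 14.6% in clone 12. These sums are descriptions; 2 libraries against 2 allow no exact permutation p below the usual threshold.

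The 3 hydroxylases summed to 194 and 219 FPKM in clone 6 and to 163 and 175 in clone 12, with Plod3 holding 47.0% and 52.4% of the sum in clone 6 and 39.6% and 41.7% in clone 12. Fibrillar collagen chains, the substrate of both families, were less abundant in clone 12: their 11 genes summed to 4142 and 3302 FPKM in clone 6 and to 1849 and 2095 in clone 12. For every 100 FPKM of fibrillar collagen there were 10.2 and 12.8 FPKM of lysyl oxidase in clone 6 and 21.5 and 23.7 in clone 12. The same measure for the hydroxylases was 4.68 and 6.63 in clone 6 and 8.79 and 8.35 in clone 12. On both measures the clone 12 libraries lay above the clone 6 libraries, and within clone 6 the NR6A1 library lay above the vector library.

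**Figure D4:**
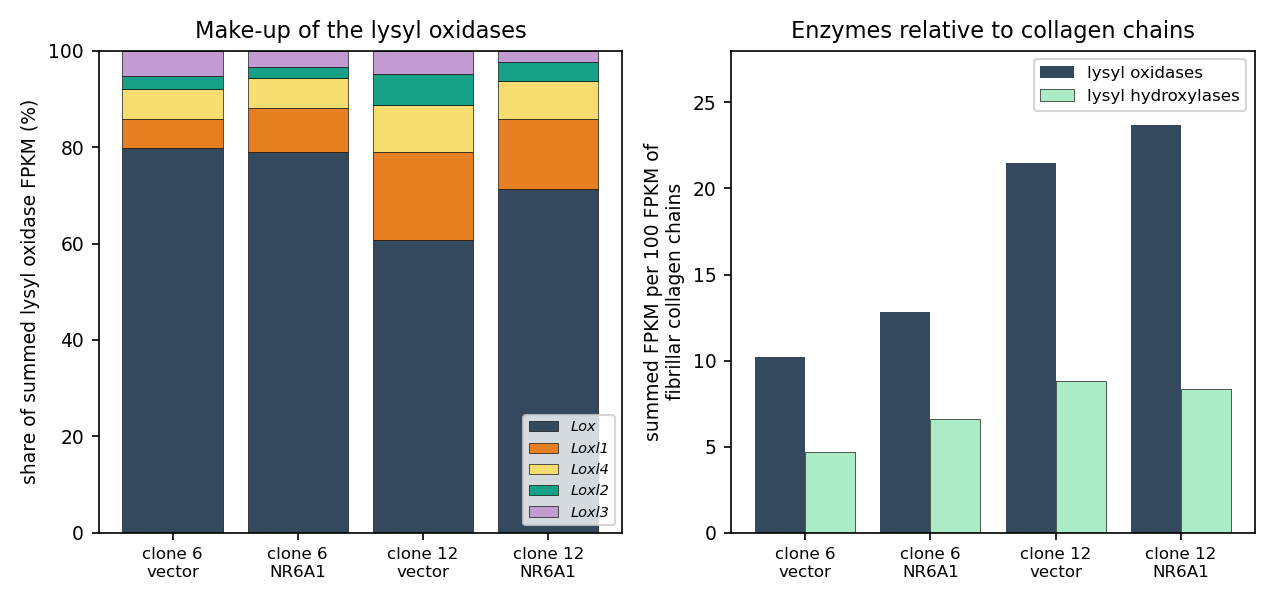
Left, the share of each gene in the summed FPKM of the 5 lysyl oxidases, 1 bar per library; right, the summed FPKM of lysyl oxidases and of lysyl hydroxylases per 100 FPKM of fibrillar collagen chains. Lox holds 78.9% to 79.9% in clone 6 and 60.8% to 71.3% in clone 12, and both right-hand measures are higher in clone 12.

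Among other genes of collagen maturation, those that passed the test were lower in clone 12. Over all genes tested, 10.5% passed as lower in clone 12 and 11.5% as higher, the background for this and each later list. Of 18 tested genes for proline hydroxylation, folding and glycosylation of procollagen, 9 were lower in clone 12, none was higher and 9 did not pass (median log2 difference -0.35, beside 0.04 over all genes tested). They include the prolyl 3-hydroxylase genes Lepre1 (-0.67 ± 0.12), Leprel1 (-0.68 ± 0.07) and Leprel2 (-0.39 ± 0.09). Fkbp10, whose protein assists lysyl hydroxylation of telopeptides, was at 245 and 203 FPKM in clone 6 and 115 and 127 in clone 12 (-0.88 ± 0.12, limma adjusted p = 0.0269). The prolyl isomerase gene Fkbp14, whose loss gives a connective tissue disease, differed by -1.43 ± 0.20. The collagen galactosyltransferase gene Glt25d1, which acts on hydroxylysine made by the Plod enzymes, was at 148 and 139 against 103 and 104 FPKM (-0.46 ± 0.07, limma adjusted p = 0.0305). The collagen chaperone gene Serpinh1, at 802 and 857 against 686 and 819 FPKM, did not pass.

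Fibrillar collagen chains themselves had 9 genes tested, of which 6 were lower in clone 12, 1 (Col5a3) higher and 2 did not pass, with a median of -0.97. Col1a1 was at 1547 and 1422 FPKM in clone 6 and 522 and 693 in clone 12 (-1.30 ± 0.15), and Col11a1 at 37.7 and 19.8 against 1.38 and 2.40 (-3.32 ± 0.37). For cartilage, a tissue that shares Col11a1, the 6 markers on the list summed to 6.22 and 4.40 FPKM in clone 6 and 0.765 and 0.640 in clone 12. Most of the clone 6 sum was Col2a1, itself a fibrillar chain (3.70 and 2.22 against 0.077 and 0.103 FPKM), and Matn3 (2.03 and 1.63 against 0.355 and 0.242). Comp was also lower in clone 12. Acan, at 0.098 FPKM or less, was higher there, Matn1 showed no clone direction and Col9a1 was listed at 0 in every library. Their part in the result was not tested.

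Of the 6 tested procollagen proteinases and enhancers, 3 were lower in clone 12 and none higher (median -0.46). Bmp1, whose proteinase frees Lox from its propeptide and trims procollagen, was at 77.2 and 71.8 FPKM in clone 6 and 31.2 and 38.2 in clone 12 (-1.09 ± 0.12, limma adjusted p = 0.0205). The others were the proprotein convertase gene Furin (-0.62 ± 0.07) and the enhancer gene Pcolce2 (-0.55 ± 0.07).

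Elastic fibre and oxidase partner genes split, with 3 of 14 higher and 6 lower in clone 12 (median -0.45). The microfibril gene Fbn1 (0.99 ± 0.14) and the fibulin gene Fbln2 (0.88 ± 0.07) were higher, as was Ltbp2 (0.74 ± 0.16). Elastic fibre genes were also among the lower ones: Ltbp4 (-0.85 ± 0.11), Fbln1 (-0.79 ± 0.13) and Efemp2 (-0.41 ± 0.08). Fmod, a proteoglycan known to bind Lox and steer crosslinking, was at 357 and 193 FPKM in clone 6 and 1.55 and 1.10 in clone 12 (-6.83 ± 0.17, limma adjusted p = 0.00267). Postn, a matrix protein known to aid Lox activation, was at 95.6 and 166 against 23.5 and 78.1 FPKM (-1.53 ± 0.24). Eln, which encodes elastin, reached at most 0.034 FPKM in any library.

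Genes of copper transport and delivery, whether or not they supply the lysyl oxidases, were 1 higher (Commd1, 0.57 ± 0.07) and 1 lower (Ccs, -0.56 ± 0.07) of 8 tested. Their median was 0.05. That is near the share of all genes tested, 11.5% higher and 10.5% lower. Atp7a, the pump that loads copper onto secreted enzymes, was at 3.86 and 3.28 FPKM in clone 6 and 3.25 and 3.75 in clone 12. Of 4 other crosslinking or disulfide enzymes, the transglutaminase gene Tgm2 (1.23 ± 0.10) and the peroxidase gene Pxdn (1.50 ± 0.27) were higher in clone 12 and Qsox2 lower (-0.58 ± 0.12).

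Hypoxia response genes, a group to which several Plod and Lox genes are known to belong, were higher in clone 12 for 5 of 19 tested and lower for none (median 0.25), beside 11.5% and 10.5% of all genes. They were Ndrg1 (1.51 ± 0.13), Bnip3 (0.70 ± 0.10), Pgk1 (0.59 ± 0.12), Hif1a (0.47 ± 0.10) and Vegfa (0.46 ± 0.10). Of the crosslinking enzymes in that comparison, Loxl1, Loxl2 and Loxl4 were higher in clone 12 and Plod3 was lower. Lox, Loxl3, Plod1 and Plod2 did not pass. Of 12 TGF-beta response genes 2 were higher, Ltbp2 among them, and 5 lower, among them Acta2 (-1.60 ± 0.08) and Ctgf (-0.81 ± 0.13).

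**Figure D5:**
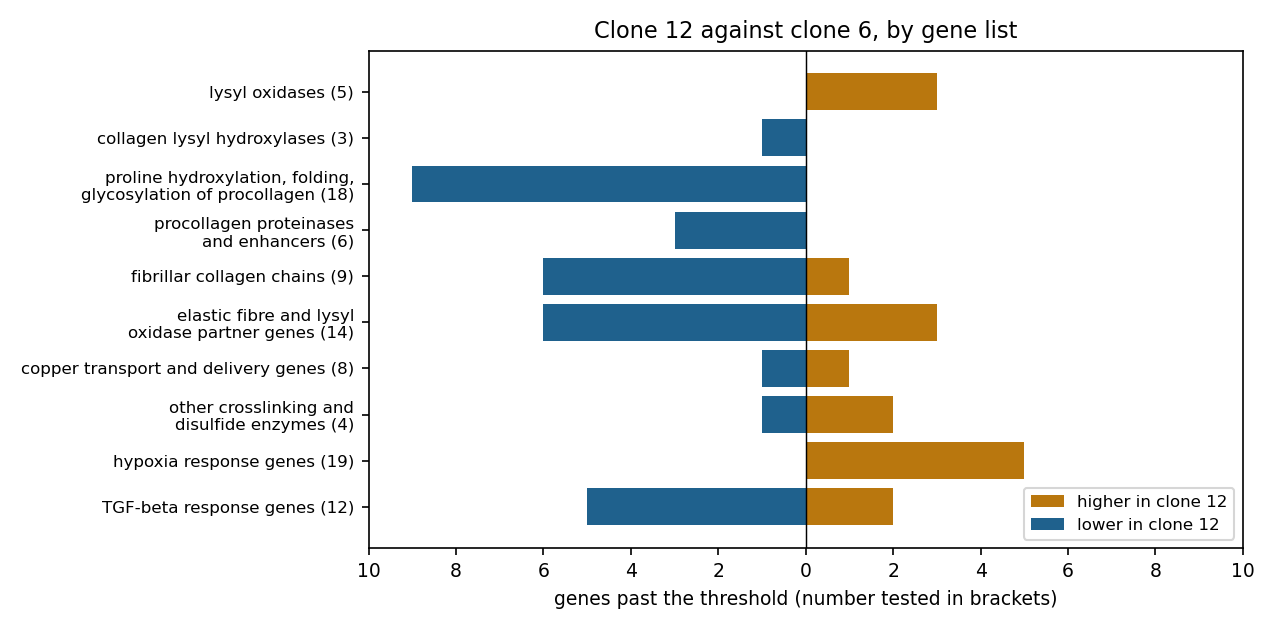
Number of genes past the limma threshold for clone 12 against clone 6 in each list, to the right where higher in clone 12 and to the left where lower; the number tested is in brackets. The lysyl oxidases have 3 genes to the right and none to the left, and the genes for proline hydroxylation, folding and glycosylation have 9 to the left and none to the right.

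By virus, none of the list genes passed the threshold. At an unadjusted p under 0.05 stood 8 of the 14 elastic fibre and partner genes (6 higher, 2 lower with NR6A1) and 5 of the 12 TGF-beta response genes (all higher), against 8.48% of all genes. In the other lists the count was 3 of 6 procollagen proteinase genes (2 higher, 1 lower), 1 of 18 procollagen folding genes, 1 of 9 fibrillar chain genes, 1 of 19 hypoxia genes, 0 of 8 copper genes and 0 of 4 other crosslinking enzymes. Postn had 95.6 and 23.5 FPKM in vector libraries and 166 and 78.1 in NR6A1 libraries (1.24 ± 0.24, limma adjusted p = 0.355), and Thbs1 at 657 and 221 against 274 and 172 (-0.81 ± 0.24, limma adjusted p = 0.548). The collagen gene Col3a1 was at 87.6 and 56.3 against 147 and 90.1 FPKM (0.70 ± 0.07, limma adjusted p = 0.169). P4ha3, a prolyl 4-hydroxylase subunit gene picked once its values were known, had 3.46 and 6.97 against 12.9 and 12.3 FPKM (1.19 ± 0.24, limma adjusted p = 0.383). In a fit without short RNA genes Col3a1 and Tagln were among the genes that passed; Loxl3 did not (limma adjusted p = 0.0845, with 0.457% of genes called).

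The profiles of Lox and Plod2 over the 4 libraries were compared with those of 9293 other genes averaging 5 FPKM or more, as the root mean square distance between centred log2 values. Closest to Lox were the small nucleolar RNA gene Snord87 (distance 0.034), the nuclear receptor gene Nr4a1 (0.041), the transcription factor gene Cebpd (0.057) and the histone gene Hist1h2an (0.059). Nr4a1 shared the low value in the vector library of clone 12, at 4.53 FPKM against 6.42 to 7.17 in the other libraries. Closest to Plod2 were Arnt (0.0052), Ncoa7 (0.0059), Sephs1 (0.0069) and Mrpl16 (0.0092). Plod2 varied little, and 566 genes lay within 0.05 of it, compared with 2 for Lox, so likeness to Plod2 means a flat profile.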

How the data were processed

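Polyadenylated RNA of 4 cultures was column-purified, DNase-treated and made into standard Illumina libraries, per the labels' protocols. The authors deposited FPKM, 1 value per gene symbol and library. TopHat 1.2.0, Cufflinks 1.0.3 and mouse build mm9 were used, per the submitters' processing notes; for gene annotation, read length and strand, nothing was stated in the sources used.

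The analysis used log2(FPKM + 1) of 11346 genes averaging 1 FPKM or more, which include all 8 enzymes, with limma 3.58.1 in R 4.3.3 (two-sided, mean-variance trend, terms for virus and clone, Benjamini-Hochberg adjustment over all genes at 0.05). Folds on this scale understate changes of low genes. There was 1 residual degree of freedom, beside a prior of 2.90. Clone was a block because each line received both viruses; as a check, the gap between clones in vector libraries was correlated over genes with that in NR6A1 libraries (r = 0.628, genes not being independent). The procedure was also run on simulated data with planted changes, with variances drawn from the prior of the same fit. The outcome is not given here, so that run lends the results no weight.

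Depth was estimated from steps of low FPKM over 1818 genes with 1 annotated transcript of at least 1500 bases. From a range of depths and length offsets, those making most values under 10 reads whole to within 0.1 read were kept. With 210 bases taken off each length, that share was 50.3% to 52.6%, against a median of 15.9% to 17.2% over the depths tried. Chance at a depth fixed in advance gives 20%, so it is no direct yardstick for a share picked as the highest. On the longest coding transcript, the 8 genes then had 947 (Loxl3) to 37163 (Lox) reads in a library. The counting error at 947 reads is 3.25%, and a shorter transcript would give fewer reads and a larger error. Transcripts, exons and overlaps came from GENCODE M21 (GRCm38); no coordinates were converted.

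The 8 genes, the 8 pathway and 7 marker lists, the tests and the alternatives were chosen with earlier results of these data known. Named were all 8 genes and the 4 genes closest to Lox and to Plod2. Per list and contrast, a rule picked up to 6 genes past the threshold by size of change, filled to 4 by mean FPKM where fewer passed. The text describes only some of the genes this rule picked, and which ones was not set by the rule. Further list members named in the text were chosen after their values were seen. A value of 1 list gene is not reported here.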

Additional observations from a re-analysis of the deposited data

Results flagged for a closer look

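In 2 of the 8 genes the change with NR6A1 had opposite signs in the clones. The log2 change of Lox was -0.018 in clone 6 and 0.55 in clone 12, and that of Loxl4 was 0.025 in clone 6 and -0.037 in clone 12. With 1 library per clone and virus these differences between clones were not tested. Both changes of Loxl4, and that of Lox in clone 6, were smaller than the SE of the fitted change of the same gene (0.07 and 0.16).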

How the results depend on the processing

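With all 4 libraries, none of the 8 genes passed for NR6A1 under any of the 10 alternatives, and all kept their direction in both contrasts. The count over all genes (4) became 7 with a pseudocount of 5, 2 with no filter, 38 with a robust prior, 51 without short RNA genes, 4 with no replicate block and 0 with any library left out. For clone 12 against clone 6, the 4 enzymes past the threshold became 0 with no filter, 3 with no replicate block and 0 to 1 with a library left out; the 2490 genes became 0 with no filter, 1581 with no variance trend, 1993 with no replicate block and 41 to 889. The cause was not tested, apart from left-out fits having fewer libraries and no block. At no filter 5 of the 8 had an unadjusted limma p under 0.05 for the clones, against 5360 of 17887 genes.

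Left-out fits mix clone and virus. For NR6A1 the log2 change then ran from -0.43 to 1.03 (Loxl1), -0.87 to 0.26 (Loxl2), -0.28 to 0.27 (Loxl4) and -0.068 to 0.58 (Plod3), turning sign; without a given library, the turned values were -0.43 and -0.14 for Loxl1 (vector 6, NR6A1 12), 0.26 and 0.20 for Loxl2 and 0.27 and 0.24 for Loxl4 (vector 12, NR6A1 6), and -0.068 for Plod3 (NR6A1 6). For the clones, Lox ran from -0.48 to 0.070, Loxl3 from -0.55 to 0.077 (also 0.053), Plod1 from -0.14 to 0.016 and Plod2 from -0.075 to 0.0050. Counting error at the lowest library, on the longest coding transcript, was 0.633% to 3.25% over the 8 genes, and larger if shorter transcripts were used. It is near the difference between the clones for Plod2 (1.72%, against folds of 1.04 with vector and 1.01 with NR6A1) and Plod1 (1.73%, against 1.06 and 1.03).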
